A study of Caenorhabditis elegans with 9 samples.

Results

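The comparison set starved first-stage larvae (L1) of Caenorhabditis elegans that lack the enzyme removing O-GlcNAc against larvae that lack the enzyme adding it. It used 6 of the 9 arrays of the series, chosen by their titles: 3 arrays of oga-1(ok1207) larvae and 3 arrays of ogt-1(ok430) larvae. The remaining 3 arrays, of wild type larvae, did not enter the test and are given only to place the mutant levels. Each array was 1-colour, carried biotin-labelled cRNA made from 4 ug of Trizol-extracted total RNA, and is labelled a biological replicate of its strain. In all 3 strains embryos were freed from gravid adults with bleach, hatched in sterile buffer without food and collected after 48 h, so every group was starved. Each mutant is represented by 1 deletion allele, and each array holds RNA of many whole larvae. The labels do not say whether replicates came from separately grown parent cultures. The p-values therefore set each strain difference against the spread between these samples only. That spread was pooled in part across probe sets. In whole larvae, fewer cells of a type and less RNA per cell cannot be told apart.

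O-GlcNAc is a single sugar carried on serines and threonines of nuclear and cytoplasmic proteins. The transferase encoded by ogt-1 adds it, using UDP-GlcNAc from the hexosamine pathway, and the hydrolase encoded by oga-1 takes it off, so the sugar turns over on its target proteins. Loss of oga-1 leaves proteins carrying more O-GlcNAc and loss of ogt-1 leaves them without it. The mark has been studied in this animal for its ties to nutrient sensing and insulin-like signalling, which also govern how L1 larvae wait out starvation.

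Values were log2 intensities as deposited, so a difference of 1 is 2-fold, and every difference is oga-1 minus ogt-1. Of 22548 probe sets tested with limma, 117 passed a Benjamini-Hochberg adjusted p of 0.05, which is 0.519% of those tested. Of these 117, 30 were higher (0.133%) and 87 were lower (0.386%) in oga-1 larvae. At least 2-fold differences made up 77 of the calls (0.341% of probe sets), 14 of them higher and 63 lower. The median difference over all probe sets was 0.0016, and the median standard error of a difference was 0.122. The 6 arrays did not overlap between strains for any of the 117 called probe sets, while 9.87% of all probe sets also showed no overlap. Exactly 1 gene symbol was assigned to 100 of the called probe sets (0.482% of 20766 such probe sets), 26 higher and 74 lower, which represent 98 genes. The descriptions below rest on these 100, whose smallest differences were 1.46-fold among the higher and 1.51-fold among the lower probe sets. No detection calls came with the values, so the highest strain mean of 5 yeast control probe sets, 6.26, served as a background level. In 29 called probe sets the dimmer strain lay at or below it.

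The arrays differed little in their overall values, with medians of 6.82 to 6.85 in oga-1 larvae and 6.80 to 6.83 in ogt-1 larvae. Within the oga-1 strain, replicate 3 correlated at a mean r of 0.9894 with the other oga-1 arrays and at 0.992 with the ogt-1 arrays. Replicate 2 had the lowest mean r with both, 0.9881 and 0.985, and replicate 1 had 0.992 and 0.9911. Without oga-1 replicate 3, 277 probe sets passed, 168 higher and 109 lower, and 111 of the 117 calls were among them. Without any other single array the count lay between 73 (ogt-1 replicate 2) and 102 (oga-1 replicate 2). It was 74 without oga-1 replicate 1 and 76 without ogt-1 replicate 3, and calls for higher probe sets were then as few as 9. Of the 100 called probe sets with 1 symbol, 51 passed with each of the 6 arrays left out in turn, 6 of them higher and 45 lower. Without limma's pooling of the spread across probe sets, 8 passed in all.

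**Figure D1:**
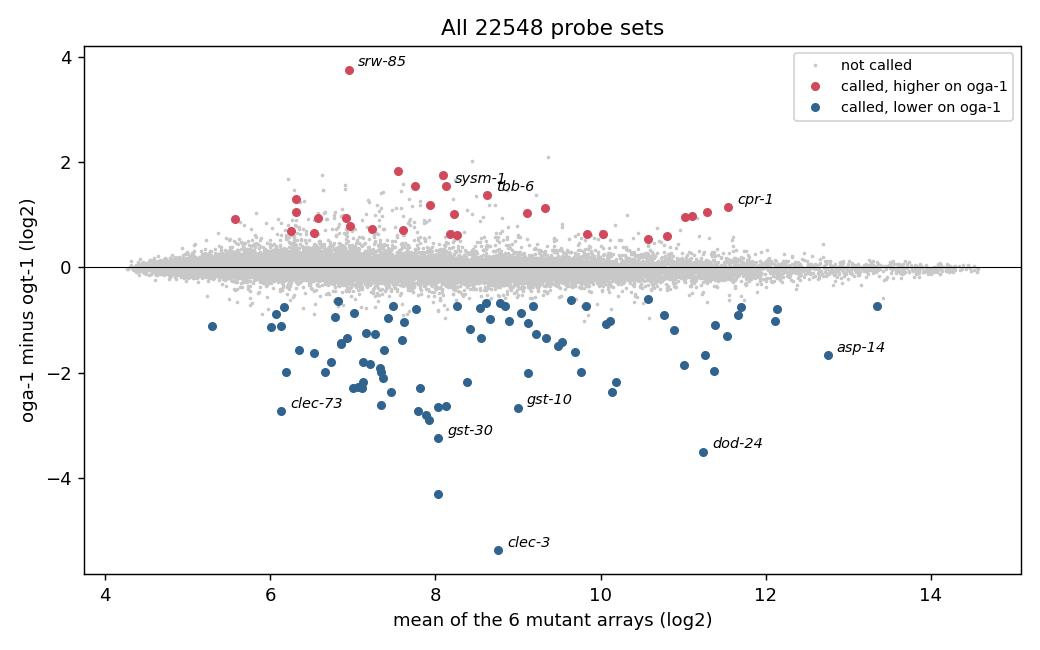
Difference between oga-1 and ogt-1 larvae (log2, vertical axis) against the mean of the 6 mutant arrays (log2, horizontal axis) for all 22548 probe sets, with the 30 called higher in red, the 87 called lower in blue and the rest in grey. The called probe sets below the zero line reach further from it than those above it, down to clec-3 at -5.38, while srw-85 stands alone at 3.76.

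No probe set of either mutated gene passed the test. On its brighter probe set ogt-1 averaged 11.16 ± 0.23 in oga-1 larvae and 11.36 ± 0.20 in ogt-1 larvae (SD, n = 3 each), with wild type at 11.58. The difference was -0.20 (95% interval -0.53 to 0.13, adjusted p = 0.9996 by limma). The other ogt-1 probe set differed by 0.21 (interval -0.02 to 0.44, adjusted p = 0.977). It averaged 10.62 in oga-1 larvae and 10.41 in ogt-1 larvae, both below the wild type mean of 11.02. On its brightest probe set oga-1 averaged 9.39 ± 0.30 in oga-1 larvae and 9.48 ± 0.08 in ogt-1 larvae (SD, n = 3 each), and its 3 probe sets differed by -0.18, -0.09 and -0.06, none of which passed. The position of these probes relative to the deletions was not given in the sources used here, so the levels do not check the strain labels. Of all 6 genes of O-GlcNAc cycling and hexosamine synthesis 0 passed and 0 reached an unadjusted p under 0.05 by limma. Among the other members gna-1 and gfat-2, which act in UDP-GlcNAc synthesis, were at -0.22 and -0.20. The list's median was -0.15, against 0.0047 over all 17118 genes. Of these 17118 genes 0.537% were called and 5.47% had an unadjusted p under 0.05.

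The widest difference between the strains belonged to clec-3, a gene of the C-type lectin family of sugar-binding domain proteins. Its values were 6.18, 5.87 and 6.17 in oga-1 larvae, against 11.51, 11.32 and 11.52 in ogt-1 larvae and a wild type mean of 5.57. The oga-1 arrays lay below the background level and the ogt-1 arrays were far above it. clec-3 was therefore at least 36.5-fold lower in oga-1 larvae, with a measured difference of -5.38 ± 0.12 (SE, adjusted p = 2.66e-08 by limma). Next was dod-24, named as downstream of the transcription factor DAF-16, at 9.62, 9.35 and 9.51 in oga-1 larvae against 12.94, 12.99 and 13.06 in ogt-1 larvae. Both strains expressed dod-24 well above background without overlap, and it was 11.3-fold lower in oga-1 larvae (adjusted p = 1.9e-07). Its wild type mean was 8.50, closer to the oga-1 arrays.

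Genes of glutathione conjugation and synthesis formed the group with the most members lower in oga-1 larvae. Glutathione S-transferases join the tripeptide glutathione to reactive compounds for disposal, and gcs-1 encodes the enzyme for the first committed step of glutathione synthesis. Of 47 measured genes on this list, 13 were lower (27.7%) and 0 were higher, against 0.537% of all genes called. The background share of genes called lower was 0.409% and called higher 0.129%. The list's median difference was -0.20 and 38 of 47 members lay below 0, while 51.5% of all genes lay above 0.

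The strongest of them was gst-30, with values of 6.54, 6.32 and 6.37 in oga-1 larvae against 9.46, 9.71 and 9.79 in ogt-1 larvae. All 3 oga-1 arrays were just above background and more than 2 log2 units below every ogt-1 array, a 9.48-fold difference (adjusted p = 5.8e-07 by limma). The gst-12 values were 6.5, 6.76 and 6.16 in oga-1 larvae and 8.82, 9.69 and 9.64 in ogt-1 larvae, 7.51-fold lower in oga-1 larvae. Its oga-1 replicate 3, at 6.16, was below background. For gst-10 they were 7.92, 7.29 and 7.79 in oga-1 larvae and 10.29, 10.34 and 10.35 in ogt-1 larvae, 6.33-fold lower. gst-4, whose promoter is a common reporter for the oxidative stress factor SKN-1, read 6.79, 6.62 and 6.71 in oga-1 larvae against 9.30, 9.59 and 9.20 in ogt-1 larvae. It was 6.30-fold lower in oga-1 larvae (adjusted p = 4.49e-06), with a wild type mean of 7.09. None of these genes overlapped between the strains on any array.

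gst-16 and gst-14 lay below background in oga-1 larvae and above it in ogt-1 larvae. gst-16 read 5.86, 5.93 and 5.76 in oga-1 larvae against 7.74, 8.37 and 8.32 in ogt-1 larvae, at least 3.69-fold lower. gst-14 read 5.52, 5.68 and 5.83 in oga-1 larvae against 7.18, 7.88 and 7.91 in ogt-1 larvae, at least 2.64-fold lower in oga-1 larvae.

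The other called members were gst-7 (-1.99), gst-6 (-1.86), gst-38 (-1.50), gst-13 (-1.34), gst-1 (-1.31), gst-20 (-1.03) and gcs-1 (-0.91). gst-20, the brightest of the 13 in both mutants, averaged 11.60 in oga-1 larvae and 12.62 in ogt-1 larvae. The wild type mean was nearer to the oga-1 mean than to the ogt-1 mean for all 13. All but gcs-1 passed with each array left out in turn, and gcs-1 (adjusted p = 0.0218) lost its call without oga-1 replicate 1, ogt-1 replicate 2 or ogt-1 replicate 3. A second gcs-1 probe set differed by -0.63 and did not pass.

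The remaining 34 members did not pass and spread between -0.95 for gst-5 and 0.45 for gsto-1, with 25 below 0. gss-1, the enzyme for the second step of glutathione synthesis, averaged 7.63 ± 0.15 in oga-1 larvae and 8.18 ± 0.13 in ogt-1 larvae (SD, n = 3 each), a difference of -0.55 (adjusted p = 0.129 by limma). The modifier subunit gene of glutamate-cysteine ligase, gclm-1, stood outside the list and was chosen after its values were seen. It differed by -0.68 at the edge of the threshold (adjusted p = 0.0498) and lost its call when any array but oga-1 replicate 3 was left out.

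**Figure D2:**
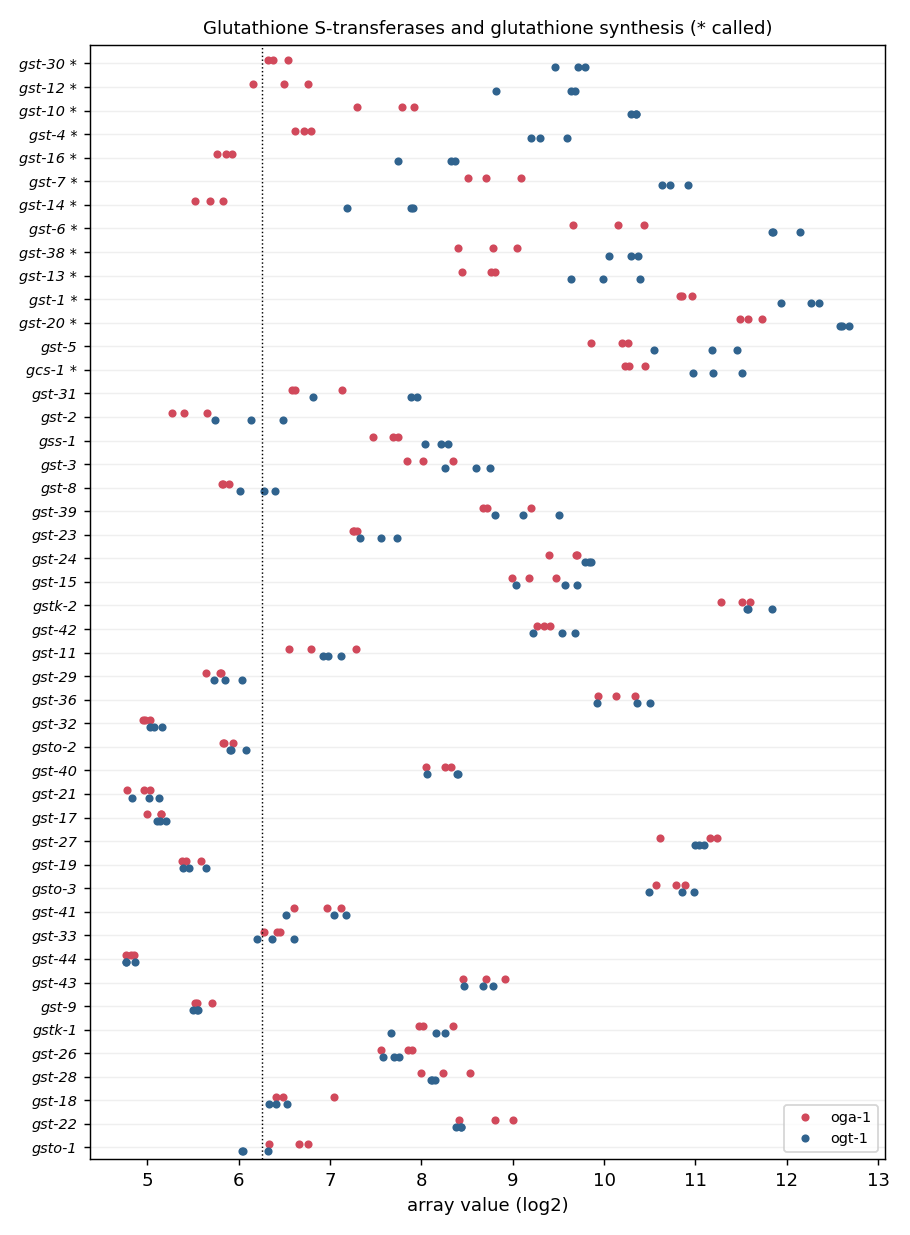
Array values (log2, horizontal axis) of the 47 glutathione S-transferase and glutathione synthesis genes, 1 row per gene, with oga-1 arrays in red above ogt-1 arrays in blue, a dotted line at the background level of 6.26 and an asterisk at the 13 called genes. In every starred row the red points lie left of the blue ones, and the rows without a star lie closer together or overlap.

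Single genes of other kinds were also lower in oga-1 larvae. nit-1, a nitrilase-family gene, read 9.0, 8.77 and 9.10 in oga-1 larvae against 11.37, 11.38 and 11.23 in ogt-1 larvae, 5.17-fold lower without overlap (adjusted p = 5.98e-06 by limma). The genes in the rest of this paragraph fell outside the naming rule and were chosen after their values were seen. cysl-2, a cysteine synthase relative that detoxifies cyanide and is a target of the hypoxia factor HIF-1, differed by -2.01. rhy-1, a membrane protein gene of the same hypoxia pathway, differed by -1.26, and lost its call when the wild type arrays joined the fit. osgn-1, related to oxidative stress induced growth inhibitor genes, differed by -1.61. The short-chain dehydrogenase gene dhs-12 differed by -1.18. Its relative dhs-4 lay below background in oga-1 larvae and was at least 2.46-fold lower there, while a second dhs-4 probe set differed by -0.38 and did not pass. wdr-23, which encodes an adaptor that sends SKN-1 for degradation, averaged 11.32 in oga-1 larvae and 12.07 in ogt-1 larvae, a difference of -0.76 that lost its call without any 1 of the ogt-1 arrays.

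The other detoxification families moved in few members, where 0.537% of all genes were called and 5.47% had an unadjusted p under 0.05. Of 64 UDP-glucuronosyltransferase genes, which attach glucuronic acid or glucose to compounds, 2 were lower (3.12%) and 0 were higher, and the median was 0.06. ugt-13 read 6.31, 6.11 and 5.66 in oga-1 larvae against 8.0, 8.22 and 8.40 in ogt-1 larvae, at least 3.81-fold lower. ugt-7 lay below background in oga-1 larvae and was at least 1.22-fold lower there. The oga-1 arrays of ugt-13 sat near or below background while its ogt-1 arrays were clear of it. ugt-7 lost its call without oga-1 replicate 1 or 2, or ogt-1 replicate 2 or 3. Of 54 ABC transporter genes 1 was lower (1.85%), the export pump gene mrp-7 at -0.79, which lost its call without oga-1 replicate 1, ogt-1 replicate 1 or ogt-1 replicate 2. None of 73 cytochrome P450 genes passed by limma, 6 had an unadjusted p under 0.05, and the list had a median of 0.01 and a range from -0.30 to 0.83. Superoxide dismutases, catalases and metallothioneins had 0 of 8 passing and 2 at an unadjusted p under 0.05, with sod-1 at -0.53 (adjusted p = 0.183) and mtl-2 at -0.41.

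Beyond clec-3, 5 further C-type lectin genes were lower in oga-1 larvae and 0 were higher. In all 6 of 220 measured passed (2.73%), against 0.537% of all genes. clec-74 read 6.37, 6.82 and 6.09 in oga-1 larvae against 8.90, 9.44 and 9.13 in ogt-1 larvae, 6.64-fold lower. Its oga-1 replicate 3, at 6.09, was below background. clec-143 read 6.82, 6.61 and 6.98 in oga-1 larvae against 9.24, 9.43 and 9.66 in ogt-1 larvae, 6.23-fold lower. clec-73 was dim, at 4.73, 4.74 and 4.82 in oga-1 larvae against 7.39, 7.58 and 7.52 in ogt-1 larvae, at least 2.36-fold lower. All 3 genes separated the strains without overlap and had wild type means within the reach of the oga-1 arrays or below them. clec-66 and clec-17 had the smallest differences, -1.09 and -0.73, and the highest levels, with clec-17 averaging 12.99 in oga-1 larvae and 13.72 in ogt-1 larvae. clec-17 lost its call without oga-1 replicate 1, ogt-1 replicate 2 or ogt-1 replicate 3. The family's median was 0.03, and 157 of the 220 genes lay at or below background in both mutants.

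Of the 9 dod genes, dod-24 and dod-17 were lower (22.2%) and 0 were higher, against 0.537% of all genes called. dod-17 read 6.21, 6.14 and 6.47 in oga-1 larvae against 8.38, 8.79 and 8.77 in ogt-1 larvae, 5.18-fold lower and without overlap (adjusted p = 1.97e-05 by limma). dod-22 and dod-19 differed by 0.19 and 0.24 and did not pass. Among genes that the list does not hold, F55G11.2 at -1.92 and F55G11.8 at -1.02 are located beside dod-17 on chromosome IV and were named after their values were seen.

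Further large falls came from genes outside these families. F01D5.2 read 6.30, 6.62 and 6.53 in oga-1 larvae against 9.05, 9.18 and 9.62 in ogt-1 larvae, 6.95-fold lower. F56D5.3 read 5.89, 6.01 and 5.88 in oga-1 larvae against 7.41, 8.55 and 8.61 in ogt-1 larvae, at least 3.81-fold lower. Neither gene overlapped between the strains, and in both the oga-1 arrays were near or below background. Named after their values were seen, shc-1, a Shc-type adaptor gene acting in insulin-like and JNK signalling, was lower on 2 of its 3 probe sets (-1.99 and -1.83), and the third differed by -0.90 (adjusted p = 0.145). asp-14, an aspartyl protease gene, differed by -1.67 at a high level, 11.91 in oga-1 larvae and 13.58 in ogt-1 larvae. fil-1, a lipase gene known for induction by fasting, differed by -1.07 and lost its call without either of oga-1 replicates 1 and 2 or either of ogt-1 replicates 1 and 2. By the naming rule, the cuticle collagen gene col-76 differed by -1.02 and the transporter gene slc-36.3 by -0.72. slc-36.3 was the 1 of 8 polyamine and slc-36 genes to pass (12.5%, a single gene of a short list, against 0.537% of all genes). col-76 lost its call in 3 of the 6 leave-one-out fits, and slc-36.3 in 5 of them.

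Only 26 probe sets with 1 symbol were higher in oga-1 larvae, and srw-85 stood well ahead of the others. srw-85 belongs to the serpentine receptors, a nematode family of predicted chemoreceptors. It read 8.94, 8.63 and 8.93 in oga-1 larvae against 5.13, 5.16 and 4.94 in ogt-1 larvae, and 5.13, 5.02 and 5.09 in wild type larvae. The gene was bright in oga-1 larvae alone among the 3 strains, at least 5.96-fold above the ogt-1 level, with a measured difference of 3.76 ± 0.12 (SE, adjusted p = 2.34e-07 by limma). Of 1275 serpentine receptor genes only srw-85 and srg-2 passed (0.157%, against 0.537% of all genes), and 1014 of the 1275 lay at or below background in both mutants. srg-2 was near background, 6.92, 6.49 and 7.12 in oga-1 larvae and 5.89, 5.66 and 5.81 in ogt-1 larvae, and lost its call without oga-1 replicate 1 or any 1 of the ogt-1 arrays.

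sysm-1 read 9.14, 8.84 and 8.71 in oga-1 larvae against 7.60, 7.36 and 7.10 in ogt-1 larvae, 2.91-fold higher without overlap (adjusted p = 0.000928 by limma). Its wild type arrays read 6.84, 6.15 and 5.86, below both mutants. tbb-6, a beta-tubulin gene, read 9.31, 9.54 and 9.11 in oga-1 larvae against 7.91, 8.11 and 7.78 in ogt-1 larvae, 2.61-fold higher without overlap (adjusted p = 0.000844). It was the 1 of 16 tubulin genes to pass (6.25%, a single gene of a short list, against 0.537% of all genes). The tbb-6 wild type mean was 7.81, close to the ogt-1 mean of 7.93. C17H12.8, a gene encoding a CUB-like domain protein, read 9.64, 9.51 and 9.74 in oga-1 larvae against 8.72, 8.30 and 8.73 in ogt-1 larvae, 2.06-fold higher. Its wild type mean was 6.29, so both mutants were above wild type and oga-1 larvae were the higher of them. A second, brighter C17H12.8 probe set differed by 0.75 and did not pass (adjusted p = 0.0706 by limma). Y39B6A.1 and ZK896.5 were higher by 1.19 and 0.94 on 1 probe set each. Their other probe sets differed by 0.57 (adjusted p = 0.321) and 0.34 (adjusted p = 0.581) and did not pass, and that of ZK896.5 lay below background in both mutants. The Y39B6A.1 wild type arrays ran between 6.73 and 9.29, wider than the gap between the mutants, and its call was lost when they joined the fit. The called probe sets of these 5 genes and srw-85 kept their calls with each array left out in turn.

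The other large rises depended on single arrays. pqn-71, which encodes a protein with a glutamine- and asparagine-rich prion-like domain, read 8.65, 9.0 and 7.74 in oga-1 larvae against 6.12, 6.95 and 6.85 in ogt-1 larvae. It was 3.54-fold higher (adjusted p = 0.0334 by limma), with oga-1 replicate 3 closest to the ogt-1 arrays, and only leaving out that array kept the call. Y38E10A.14 read 9.49, 9.24 and 8.20 in oga-1 larvae against 7.06, 7.74 and 6.84 in ogt-1 larvae (adjusted p = 0.0498), again with replicate 3 lowest in oga-1 larvae. C50F7.5 differed by 1.55 on 1 of its 3 probe sets, and the others lay below background in both mutants. F14H12.3, below background in ogt-1 larvae and at least 1.63-fold higher in oga-1 larvae, lost its call without any array except oga-1 replicate 3, and its second probe set differed by 0.92 and did not pass. Y38E10A.14 lost its call without oga-1 replicate 1 or 2, or ogt-1 replicate 1 or 3, and C50F7.5 without any array except oga-1 replicate 3. F59C12.4 at 1.13 lost its call without either replicate 1. Over the 26 higher probe sets, oga-1 replicate 3 was the lowest oga-1 array in 14.

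cpr-1 and cpr-5, genes for cathepsin B-like cysteine proteases known from the intestine, were higher in oga-1 larvae. cpr-1 read 11.93, 12.04 and 12.39 in oga-1 larvae against 11.35, 10.94 and 10.64 in ogt-1 larvae, 2.21-fold higher without overlap (adjusted p = 0.0249 by limma). cpr-5 read 8.77, 8.53 and 8.92 in oga-1 larvae against 8.05, 7.60 and 7.5 in ogt-1 larvae, 2.04-fold higher. Wild type means were 11.77 for cpr-1 and 8.98 for cpr-5, nearer the oga-1 levels in both. cpr-1 lost its call without oga-1 replicate 1 or 2, or ogt-1 replicate 2 or 3. cpr-5 lost its call without oga-1 replicate 1, ogt-1 replicate 2 or ogt-1 replicate 3. cpr-1 was the only 1 of 15 intestine markers to pass (6.67%, a single gene of a short list, against 0.537% of all genes). Of these 15 markers 10 lay below 0, while 51.5% of all genes lay above 0. The list's median was -0.02, with a range from -0.75 to 1.14. The intestinal transcription factor gene elt-2 differed by -0.16.

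Among defence and stress genes single members passed, where 0.537% of all genes were called and 5.47% had an unadjusted p under 0.05. lys-4 was the 1 of 16 lysozyme genes to pass (6.25%), at least 1.51-fold higher against an ogt-1 level below background (adjusted p = 0.0498 by limma). sip-1 was the 1 of 12 small heat shock protein genes to pass (8.33%), higher by 0.54 (adjusted p = 0.0498), while a second sip-1 probe set differed by 0.47 and did not pass. Both sat at the threshold: lys-4 lost its call without any array but oga-1 replicate 2, and sip-1 without any of the 6. lys-4 averaged 6.86 in oga-1 larvae, 6.20 in ogt-1 larvae and 7.91 in wild type larvae. sip-1 averaged 10.85 in oga-1 larvae, 10.31 in ogt-1 larvae and 11.08 in wild type larvae. Both mutants lay below wild type for these genes. Of 14 large chaperones 0 passed, with 0 at an unadjusted p under 0.05, and hsp-16.2, a small heat shock gene, averaged 11.14 ± 0.17 in oga-1 larvae and 11.16 ± 0.45 in ogt-1 larvae (SD, n = 3 each), a difference of -0.02 (interval -0.47 to 0.43). None of 51 saposin-like, thaumatin and other antimicrobial genes passed, with 7 at an unadjusted p under 0.05. The nearest were irg-3 at -1.02 (adjusted p = 0.0706) and irg-8 at 0.91 (adjusted p = 0.0708), both infection response genes.

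**Figure D3:**
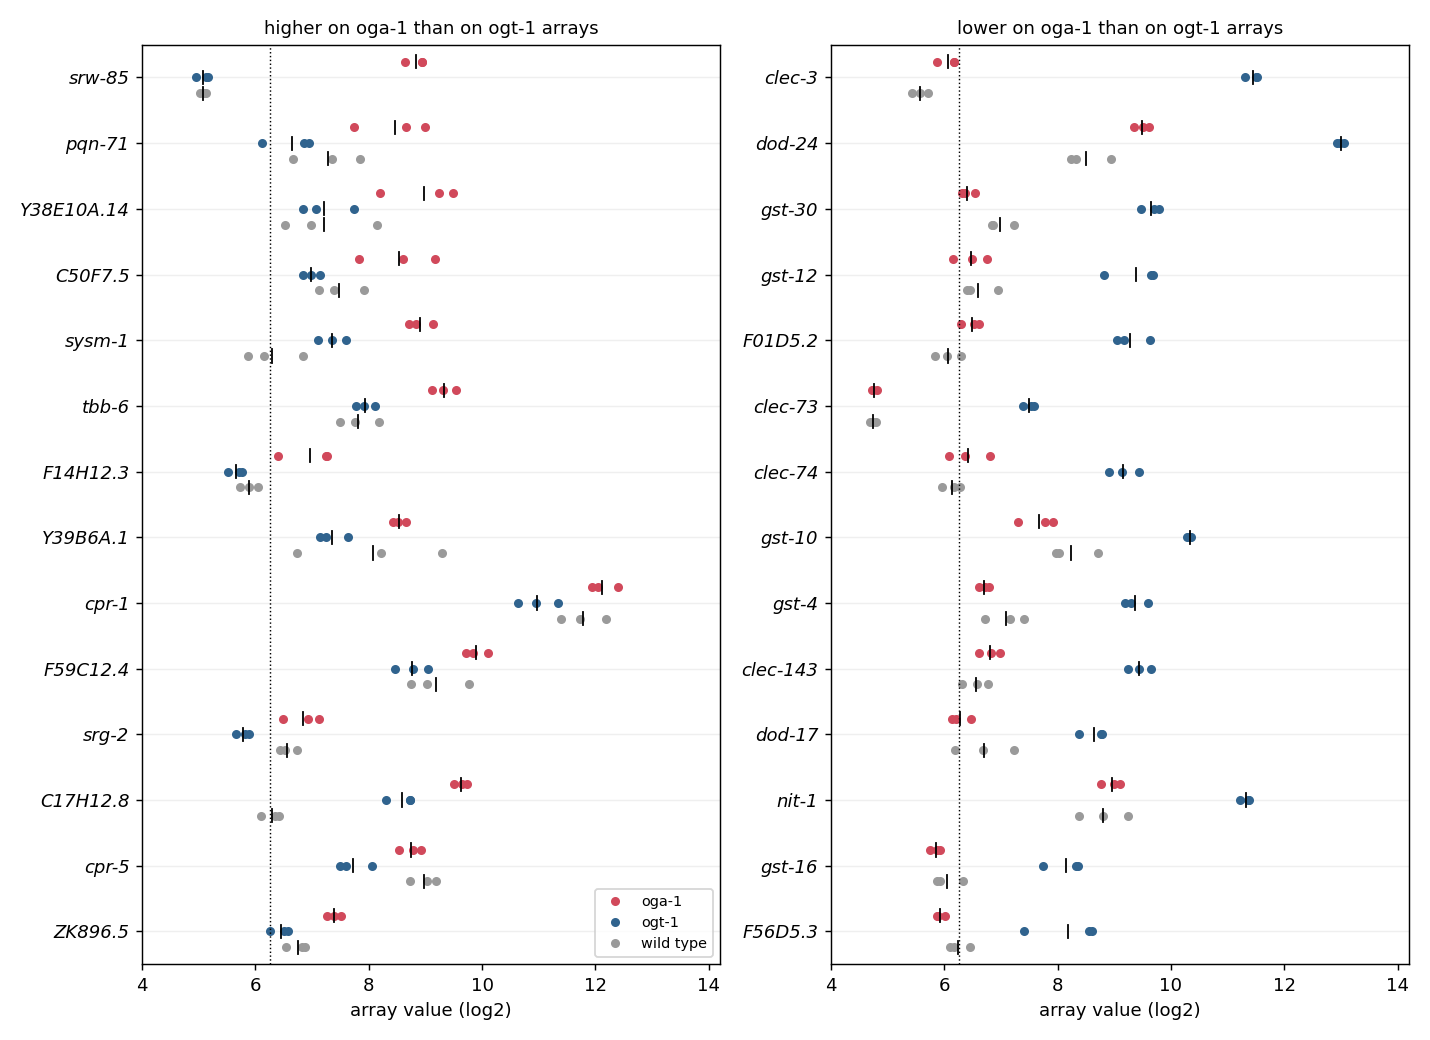
Array values (log2, horizontal axis) of the 14 largest called rises (left) and 14 largest called falls (right), with oga-1 arrays in red, ogt-1 arrays in blue and wild type arrays in grey from top to bottom within each gene, short black bars at the means and a dotted line at the background level of 6.26. On the right the grey means are nearer the red ones throughout, and on the left they are nearer the red ones for cpr-1, cpr-5, srg-2 and Y39B6A.1 and nearer the blue ones for the other 10.

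The wild type arrays, which had no part in choosing the called probe sets, had means nearer those of oga-1 in most of the lower ones. Among the 74 called lower, the wild type mean was nearer the oga-1 mean in 70, and the ogt-1 mean was above wild type in 73. The median of oga-1 minus wild type over these 74 was -0.0044 and that of ogt-1 minus wild type was 1.38. The wild type mean lay outside the span of the mutant means in 37 of the 74, and single oga-1 means differed from wild type both ways, as in F55G11.8 (1.48 above), gst-38 (1.15 above), dod-24 (0.99 above) and fcmt-1 (-1.14). The 4 with wild type nearer ogt-1 were C24H10.2, ugt-7, ZK742.4 and fcmt-1. fcmt-1 averaged 6.91 in oga-1 larvae, 8.28 in ogt-1 larvae and 8.05 in wild type larvae. The oga-1 mean minus the wild type mean ran from -1.14 to 1.48 over the 74, and the ogt-1 mean minus the wild type mean from -0.08 to 5.87. These are 2 sets of differences from the same 3 wild type arrays, and the ogt-1 and oga-1 values also made the calls, so no test is given.

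The 26 called higher were split. The wild type mean was nearer ogt-1 in 14, led by srw-85, pqn-71 and Y38E10A.14, and nearer oga-1 in 12, among them cpr-1, cpr-5, lys-4 and sip-1. Their median was 0.61 for oga-1 minus wild type and -0.47 for ogt-1 minus wild type. The wild type mean lay outside the span of the mutant means in 12 of the 26. Among these were sysm-1 and C17H12.8, with both mutants above wild type, and lys-4, with both below. Those nearer oga-1, named here after their values were seen, included mup-4, a gene for a transmembrane protein of epidermal attachments to muscle (0.79), the nuclear hormone receptor gene nhr-88 (0.64) and svct-1 (0.71). The nhr-88 call came from 1 of 4 probe sets, all above background. The others differed by -0.16, on the brightest, 0.08 and 0.03. A second mup-4 probe set differed by 0.38 and did not pass. iff-1, a gene for translation factor eIF-5A, was among those nearer ogt-1, higher by 0.63. mup-4, nhr-88, svct-1 and iff-1 each lost their calls in 4 of the 6 leave-one-out fits.

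**Figure D4:**
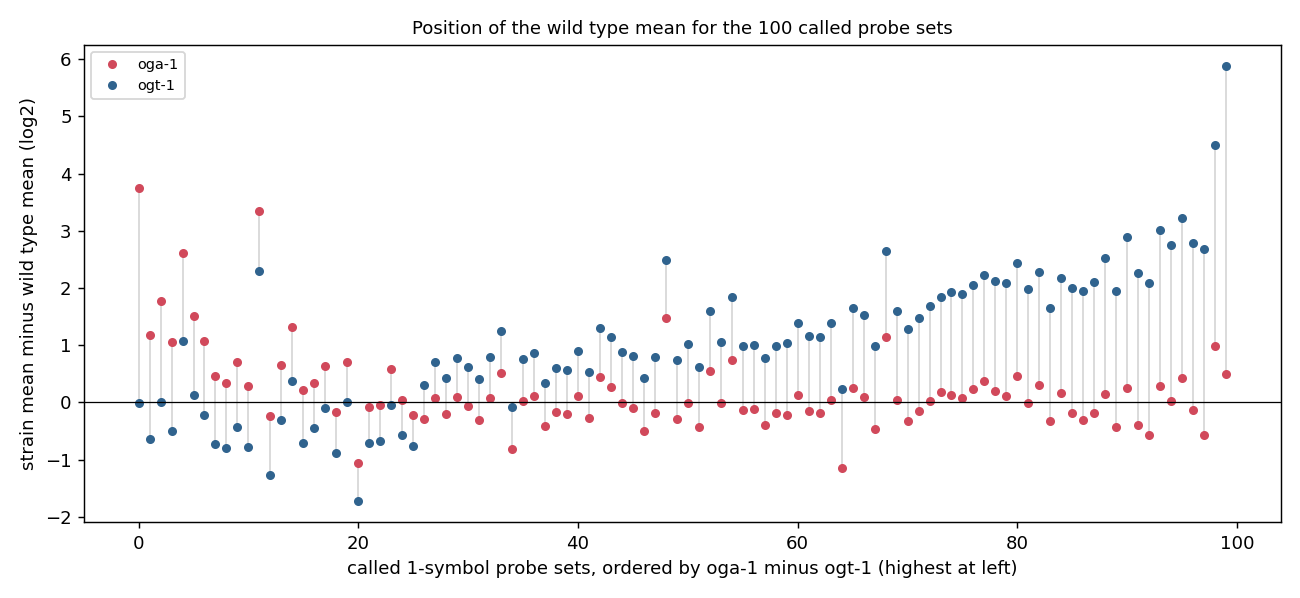
Strain mean minus wild type mean (log2, vertical axis) for the 100 called probe sets with 1 symbol, ordered by the difference between oga-1 and ogt-1 larvae (horizontal axis, highest at left), with oga-1 in red, ogt-1 in blue and a grey line joining the pair. In the 74 probe sets on the right the red points scatter about 0 and the blue points lie above it in 73, while the 26 on the left are mixed.

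No gene of the nutrient sensing lists passed the adjusted threshold, where 0.537% of all genes did. In lists this short, 0 calls is near that share. None of 24 insulin-like peptide genes, 10 insulin signalling genes, 11 TGF-beta and steroid dauer genes or 14 TOR and AMPK genes passed. Only 2 of these genes, both insulin-like peptide genes, reached an unadjusted p under 0.05 by limma, against 5.47% of all genes. The medians were 0.06 for the peptides, -0.07 for insulin signalling, 0.04 for the dauer genes and -0.12 for TOR and AMPK. daf-16, the forkhead factor that insulin-like signalling holds out of the nucleus, averaged 11.82 ± 0.15 in oga-1 larvae and 11.79 ± 0.21 in ogt-1 larvae (SD, n = 3 each). Its difference was 0.03 with a 95% interval of -0.27 to 0.32. age-1, the phosphatidylinositol 3-kinase gene, and akt-2, a kinase gene below it, differed by -0.14 and -0.12. The insulin-like peptide gene ins-5 had the widest gap of its list, 0.61 (adjusted p = 0.115 by limma). aakb-1, a regulatory subunit gene of AMP-activated kinase, differed by -0.26. The adaptor gene shc-1, which acts in insulin-like and JNK signalling, stood outside these lists. It was called at -1.99 and -1.83, and its remaining probe set, at -0.90, did not pass.

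Metabolic lists gave no calls: 0 of 17 fatty acid desaturase, elongase and synthase genes, 0 of 26 lipases, 0 of 46 acyl-CoA synthetases and dehydrogenases, 0 of 10 trehalose and glycogen genes and 0 of 21 genes of sugar breakdown and synthesis. The lipase gene fil-1, called at -1.07, stood outside the lipase list. With 0.537% of all genes called, 0 calls in lists of this size is near the share over all genes. An unadjusted p under 0.05 was reached by 5.47% of all genes. In these lists it was reached by 1 desaturase-list gene, 1 lipase, 5 acyl-CoA genes, 1 trehalose and glycogen gene and 1 sugar gene. The widest of these differences were acdh-1, an acyl-CoA dehydrogenase gene, at 1.19 (adjusted p = 0.249 by limma), and acs-2, an acyl-CoA synthetase gene, at 0.93 (adjusted p = 0.384). None of 72 cytosolic ribosomal protein genes passed, 1 had an unadjusted p under 0.05, and the median was -0.02. None of 33 proteasome subunit genes passed and 4 had an unadjusted p under 0.05. Of the 33, 32 lay below 0, while 51.5% of all genes lay above 0. The list's median was -0.17, with a range from -0.36 to 0.11. The proteasome median stayed between -0.21 and -0.13 with each array left out. pbs-4 and pas-1, subunits of the proteasome core, differed by -0.32 and -0.34 (adjusted p = 0.528 and 0.575). None of 310 F-box genes, 259 nuclear hormone receptor genes by their brightest probe set, 26 histone genes, 83 neuropeptide genes or 2 pud genes passed. Of these lists 6, 13, 1, 3 and 0 genes had an unadjusted p under 0.05, in the same order.

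Surface and secreted protein families were called in few members with all 6 arrays, where 0.537% of all genes were called. Of 146 cuticle collagen genes 1 passed (col-76, 0.685%), near the share over all genes, although single collagens reached 1.75 above 0. Of 58 abu and pqn genes 1 passed (pqn-71, 1.72%), and none of 80 hedgehog- and patched-related, 33 astacin or 40 transthyretin-like genes did, where 6, 3 and 9 had an unadjusted p under 0.05 by limma. Of the collagen genes 18, and of the abu and pqn genes 11, had an unadjusted p under 0.05, a level reached by 5.47% of all genes. Without oga-1 replicate 3, 12 collagen genes, 8 abu and pqn genes, 3 hedgehog- and patched-related genes and 3 transthyretin-like genes were called higher in oga-1 larvae. The part of that array in these families was not tested further.

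**Figure D5:**
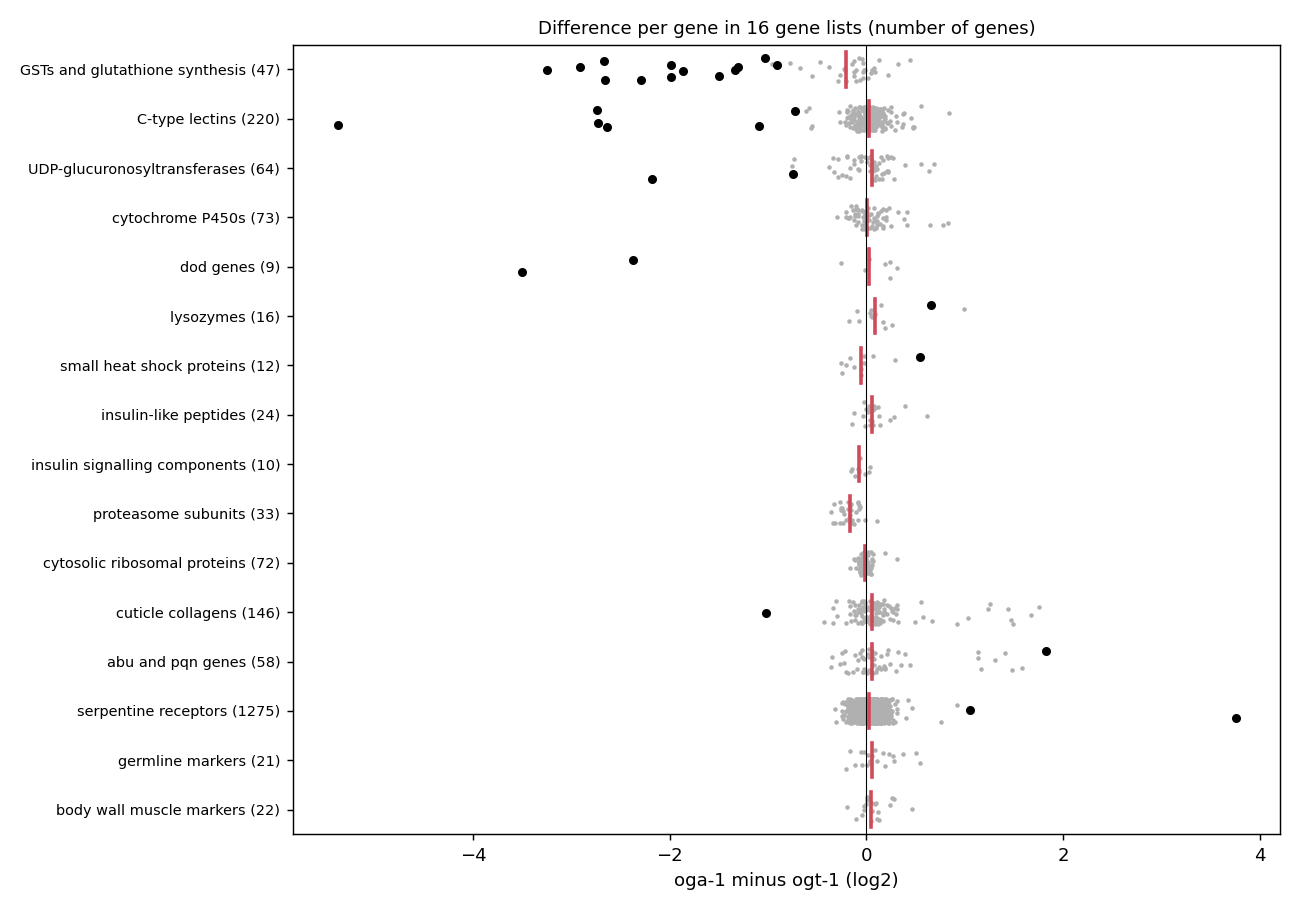
Difference between oga-1 and ogt-1 larvae (log2, horizontal axis) for each gene of 16 gene lists, with the number of measured genes in brackets, called genes in black, others in grey and the list's median as a red bar. Called glutathione genes spread from -3.24 to -0.91, single lectins reach -5.38, and the medians of these 16 lists stay between -0.20 and 0.09.

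Lists of tissue and cell type markers showed no called member apart from cpr-1. None of 20 neuron, 22 body wall muscle, 15 pharynx, 10 hypodermis or 21 germline markers passed, and their medians ran from -0.04 for neurons to 0.06 for the germline. Unadjusted p under 0.05 was reached by 0 neuron, 1 muscle, 2 pharynx, 0 hypodermis and 5 germline markers. Over all genes 5.47% reached that level and 0.537% were called, so 0 calls in these short lists is near the share over all genes. The germline genes pgl-1 and glh-1, which encode components of germ granules, were at 0.50 and 0.55 (adjusted p = 0.13 and 0.151 by limma). For adult and sperm transcripts, 3 of 5 yolk genes and 10 of 23 major sperm protein genes were at or below background in both mutants. All 23 sperm protein genes lay slightly above 0, where 51.5% of all genes did. The list's median was 0.11, and 0 of its genes passed or reached an unadjusted p under 0.05. The part of cell makeup in the called genes was not tested.

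No called gene was found among the genes nearest to either mutated locus. Chromosome names come from the RefSeq gene table of WBcel235. Of the 100 measured genes nearest to ogt-1 on chromosome III, 50 on each side, 0 passed by limma, with 2 at an unadjusted p under 0.05. Around oga-1 on chromosome X 0 of 100 passed, with 5 at an unadjusted p under 0.05. Over all 17118 genes 5.47% reached that level and 0.537% were called. At that share, 0 calls among 100 genes cannot show whether calls gather at or avoid a locus. Called shares were 0.829% on chromosome II, 0.825% on IV, 0.533% on V, 0.355% on III, 0.34% on X and 0.243% on I. Several genes lower in oga-1 larvae lay side by side, at most 3 measured genes apart. On chromosome II these were gst-6 with gst-7, M05D6.5 with taap-1, F01D5.2 with F01D5.3, and the run gst-20, gst-14, gst-12 and gst-16. On chromosome IV they were clec-73 with clec-74, gst-4 with dhs-12, and F55G11.8 with F55G11.2 and dod-17. On chromosome V they were F56A4.10 with gst-10 and C55A6.6 with sdz-8. Neighbours of 1 gene family are often related in sequence. Of the 100 called probe sets, 32 are of a design type that can bind more than 1 related transcript. The share of this design over the array was not counted.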

How the data were processed

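Per the labels, total RNA was measured on Affymetrix arrays. The authors deposited 1 table of log2 intensities for 9 arrays; per the submitters' processing notes MAS5, RMA and Partek were used, in roles not given in the sources used here. Of 22625 probe sets, 77 controls were left out. Probe sets were named through the platform annotation: 20766 had 1 symbol, 887 several and 895 none. limma 3.58.1 in R 4.3.3 (lmFit, eBayes) was run on the 6 mutant arrays, with Benjamini-Hochberg adjustment over 22548 probe sets and calls at 0.05. It was tested on simulated data. Levels against wild type are strain means. In 44 gene lists each of 17118 genes was represented by the 1-symbol probe set of highest mean. Named by rule were the mutated genes, the 14 largest called rises and falls without overlap, and per list up to 4 called members by p, or 2 if none. The members and lists were chosen with earlier results of these data known, and the background level after seeing the values. A fold written "at least" sets each dim array at no less than that level. The number of arrays limits the precision.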

Additional observations from a re-analysis of the deposited data

How the results depend on the processing

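Counts are given as total, higher, lower and at least 2-fold, against 117, 30, 87 and 77 with limma on 6 arrays. Leaving out 1 array at a time gave totals of 73 to 277, higher calls of 9 to 168, lower calls of 61 to 109 and 2-fold calls of 61 to 162. Without variance moderation 8 passed, 1 higher, 7 lower and 7 by 2-fold; srw-85, clec-3, dod-24, gst-30 and clec-73 were the 5 called 1-symbol probe sets still called there and under each other alternative except the stricter threshold. At 0.01, 73 passed, 10 of them higher, and at 0.1 the higher calls were 50. Same-numbered mutant arrays correlated at 0.072, 0.094 and 0.113 in their deviations from the strain mean, and the other pairs at -0.164 to 0.082. oga-1 replicate 1 correlated best with ogt-1 replicate 2. The labels state no pairing, so none was used, and whether same-numbered arrays share an effect was not tested. With the replicate number as a block 174 passed, 72 higher, 102 lower and 94 by 2-fold, 113 of them shared. All 9 arrays in the fit gave 116, quantile normalization 99, median centring 116, and leaving out the dimmest 25% or 50% gave 114 or 93. The lower share was 74.4%, against 77.6% centred, 78.8% after quantile normalization, 58.6% with the replicate block and 39.4% without oga-1 replicate 3. Centring moved the median difference by -0.0236. Of named differences 9 changed sign under an alternative, none of them called. With 1 array left out at a time, the oga-1 probe sets ranged from -0.221 to 0.075 and from -0.19 to 0.0223, pud-3 from -0.043 to 0.0848, age-1 from -0.231 to 0.024, akt-2 from -0.223 to 0.0132, daf-12 from -0.347 to 0.0615, unc-104 from -0.348 to 0.0251, snt-1 from -0.311 to 0.0213 and vit-2 from -0.123 to 0.0235. The cause of these changes was not tested. Signal over background limits 29 calls, whose dimmer strain was at or below 6.26.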
